A study of Mus musculus with 40 samples.

Results

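Lysosome and autophagy genes are described here across cultured mouse melanoma cells with altered Bmal1. The set holds 38 genes, listed by name from textbook membership of the lysosome, its proton pump and the autophagy machinery and matched to Ensembl identifiers by mouse symbol, out of 51789 genes in the count table. The list was chosen with earlier results of these data known. It comprises 7 lysosomal membrane proteins (Lamp1, Lamp2, Scarb2, Cd63, Npc1, Mcoln1, Cln3), 7 proteases (Ctsa, Ctsb, Ctsd, Ctsf, Ctsl, Ctsz, Tpp1), 6 glycosidases (Hexa, Gla, Glb1, Gaa, Gusb, Neu1), 5 lipid-handling proteins and activators (Psap, Npc2, Asah1, Lipa, Grn), 6 subunits of the vacuolar ATPase or V-ATPase (Atp6v0d1, Atp6v0e, Atp6v1a, Atp6v1b2, Atp6v1h, Atp6ap1), the transcription factors Tfeb and Tfe3, and 5 autophagy genes (Sqstm1, Map1lc3b, Gabarapl1, Wipi1, Uvrag). Counts were present in every library for 37 of the 38 genes, and Ctsf, a cysteine protease, reached at most 3.49 CPM and had too few counts to be tested in 10 of the 21 comparisons.

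Lysosomes are acidic organelles in which hydrolases break down proteins, glycans and lipids that arrive by endocytosis or by autophagy. The V-ATPase pumps protons into the lumen, membrane proteins such as Lamp1 and Npc1 line the organelle and export its products, and autophagosomes that carry LC3 family proteins deliver cytoplasmic cargo. Many of these genes share a short promoter element, the CLEAR motif, which is bound by the related factors Tfeb, Tfe3 and Mitf, the last of which is also the lineage factor of melanocytes. Bmal1 is the circadian factor that binds E-box DNA of much the same letters together with Clock.

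RNA was measured by QuantSeq, which reads the 3′ end of each transcript, in 40 libraries from 20 groups of 2. B16-F10 is a mouse melanoma line, represented by 1 control clone (Ctrl) and 1 clone labelled as a Bmal1 knockout (KO). YUMM2.1 comes from a mouse tumour with alleles that include mutant Braf, a lost copy of Cdkn2a and a stabilised β-catenin allele, aC3 is 1 clone of YUMM2.1 in which Bmal1 was disrupted by CRISPR, and YUMM1.7 is another mouse melanoma line. Cells of all 3 carried an empty vector (EV), wild-type Bmal1 (WT-Bmal1) or a Bmal1 without its basic helix-loop-helix domain (dHLH-Bmal1), and the study's methods describe lentivirus and sorting for GFP in YUMM2.1 and aC3. In a separate experiment, the EV, WT-Bmal1 and dHLH-Bmal1 forms of YUMM2.1 also carried a control hairpin (shNC) or a hairpin against the non-muscle myosin gene Myh9 (shMyh9#2 or shMyh9#4). The study calls its duplicates biological replicates without saying whether they were separate cultures, so that p-values here measure the spread between libraries, which may be technical in part. Because RNA came from bulk cultures, fewer cells of a type and less RNA per cell cannot be told apart.

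Library totals ran from 3643332 to 22970049 counts with a median of 10021164.5, and the shallowest was a dHLH-Bmal1 shMyh9#4 library. A level here is a CPM value, the count scaled to the library total, after edgeR's TMM normalization, so that at the median total 1 CPM rests on about 10.02 counts. The targeted gene Myh9 fell from 665.0 to 993 CPM in the 6 shNC libraries to 229 to 291 CPM with shMyh9#2 and 465 to 678 CPM with shMyh9#4. Arntl, the gene of Bmal1, had 10.7 to 15.2 CPM in Ctrl and 11.5 to 13.3 CPM in the B16-F10 libraries labelled KO and so did not separate these groups, nor did it separate WT-Bmal1 from EV in YUMM2.1 at 13.9 to 18.2 against 13.9 and 15.9 CPM. In aC3 it was lower with WT-Bmal1, at 18.2 and 17.5 CPM, than with EV, at 33.1 and 30.5 CPM, and a count at the 3′ end of the transcript does not check whether the reading frame is disrupted or whether a construct is expressed. With dHLH-Bmal1, Arntl lay above EV in YUMM2.1, at 51.1 and 35.4 CPM. The same held in YUMM1.7 (14.7 and 20.5 against 8.46 and 8.61 CPM) and with shNC (49.5 and 37.5 against 31.3 and 26.8 CPM). In aC3 it overlapped EV, at 45.4 and 31.8 CPM. With WT-Bmal1 it had 14.7 and 12.5 CPM in YUMM1.7 and 35.5 and 34.2 CPM with shNC. In a table of the study's supplement, 6 of 8 columns were closest to the deposited library of the same label, whereas the YUMM2.1 columns for EV replicate 2 and WT-Bmal1 replicate 1 were each closest to the library labelled as the other, so results that rest on these 2 libraries are also given with the labels exchanged and without both. Of the 8 melanocytic markers, the summed level was 24035.8 to 28737.4 CPM in B16-F10, 108 to 170 CPM in YUMM1.7, where Tyrp1, Dct and Mlana had no counts, and 116 to 713 CPM in YUMM2.1 and aC3, where Tyrp1 and Mlana had none. Outside B16-F10, Pmel, Tyr and Dct reached at most 0.598, 1.90 and 0.845 CPM. The sum there came almost wholly from Sox10 (0.0908 to 610 CPM), Gpnmb (34.4 to 161 CPM) and Mitf (10.4 to 26.8 CPM). The 6 macrophage markers summed to at most 2.61 CPM in any library and the 3 endothelial markers to 3.75 to 26.4 CPM.

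Promoter sequence is shown for 6 members that are named in the results below and that differ in the letters that Tfeb and Bmal1 are known to bind. RefSeq windows of GRCm38.p6, from 250 bases before to 50 bases after a start, were present for 33 of the 38 members. Asah1, Atp6v1b2, Atp6v1h, Ctsb and Npc1 had no window and are in none of the motif counts. The palindrome CACGTG, searched on both strands, lay in the windows of 13 of these members (39.4%) and of 2187 of all 27025 genes with a window (8.09%). The longer TCACGTG, which contains it, lay in 11 members (33.3%) and in 4.29% of all genes, and the related TCATGTG lay in Ctsa, Gla, Grn, Scarb2 and Tpp1 (15.2%) and in 4.31% of all genes. The 13 members with CACGTG were Lamp1, Mcoln1, Cln3, Ctsa, Ctsd, Ctsf, Ctsl, Gla, Glb1, Gaa, Atp6v0d1, Atp6v0e and Atp6v1a. In the sequences below, 250 bases up to the base before the RefSeq start are printed 5′ to 3′ on the strand of the gene, and capitals mark CACGTG or TCATGTG on either strand with the flanking base of the longer motif.
Lamp1 (chr8:13158911-13159160, + strand): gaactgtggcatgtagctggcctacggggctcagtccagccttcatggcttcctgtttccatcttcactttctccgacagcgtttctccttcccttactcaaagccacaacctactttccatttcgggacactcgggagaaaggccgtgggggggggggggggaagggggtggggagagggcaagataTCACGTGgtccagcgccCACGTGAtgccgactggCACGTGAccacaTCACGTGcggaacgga
Cln3 (chr7:126583237-126583486, − strand): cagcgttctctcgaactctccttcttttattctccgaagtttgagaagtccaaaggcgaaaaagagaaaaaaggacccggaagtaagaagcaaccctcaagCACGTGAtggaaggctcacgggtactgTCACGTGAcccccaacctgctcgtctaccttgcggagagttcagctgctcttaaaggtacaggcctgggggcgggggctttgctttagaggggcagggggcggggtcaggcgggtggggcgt
Ctsd (chr7:142387828-142388077, − strand): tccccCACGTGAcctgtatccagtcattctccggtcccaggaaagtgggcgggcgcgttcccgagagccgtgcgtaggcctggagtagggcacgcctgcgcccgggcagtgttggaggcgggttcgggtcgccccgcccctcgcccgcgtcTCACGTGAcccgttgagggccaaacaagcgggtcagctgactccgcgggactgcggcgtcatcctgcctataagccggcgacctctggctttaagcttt
Ctsf (chr19:4854915-4855164, + strand): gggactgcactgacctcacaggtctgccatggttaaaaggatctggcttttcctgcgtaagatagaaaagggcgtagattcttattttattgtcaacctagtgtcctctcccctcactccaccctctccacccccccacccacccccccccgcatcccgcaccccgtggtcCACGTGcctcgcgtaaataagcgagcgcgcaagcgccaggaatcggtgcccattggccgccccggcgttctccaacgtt
Scarb2 (chr5:92505658-92505907, − strand): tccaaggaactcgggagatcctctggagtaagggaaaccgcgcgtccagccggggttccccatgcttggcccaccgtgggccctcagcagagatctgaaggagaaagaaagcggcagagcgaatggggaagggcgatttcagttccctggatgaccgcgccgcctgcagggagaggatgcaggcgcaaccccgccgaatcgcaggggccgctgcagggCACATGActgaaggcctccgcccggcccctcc
Grn (chr11:102430257-102430506, + strand): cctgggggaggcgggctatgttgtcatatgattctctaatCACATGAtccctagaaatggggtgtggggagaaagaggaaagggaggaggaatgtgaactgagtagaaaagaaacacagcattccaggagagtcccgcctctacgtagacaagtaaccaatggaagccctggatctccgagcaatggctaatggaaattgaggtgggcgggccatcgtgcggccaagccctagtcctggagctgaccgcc
Lamp1, the most abundant glycoprotein of the lysosomal membrane together with Lamp2, held 4 copies of CACGTG in these bases. Cln3, a membrane protein lost in juvenile Batten disease, and Ctsd, the main aspartic protease of the lysosome, held 2 copies each, and Ctsf held 1. Scarb2, the receptor that carries glucocerebrosidase to lysosomes, and Grn, the progranulin precursor, held no CACGTG and 1 TCATGTG each. These matches are a description of the letters and not of binding.

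Each line had members at their highest and members at their lowest level. The highest of the 20 group means lay in B16-F10 for 16 members, in the hairpin libraries of YUMM2.1 for 14, in aC3 for 4 and in YUMM1.7 and in YUMM2.1 without a hairpin for 2 each. The lowest lay in the hairpin libraries for 14, in YUMM1.7 and in aC3 for 9 each, in B16-F10 for 5 and in YUMM2.1 for 1. These sets are of unlike size, with 18 hairpin libraries, 4 of B16-F10 and 6 of each other set. They also come from separate experiments, and the same counts over all genes are not given. Tfeb, a master regulator of lysosomal genes, had the widest range of group means among members with a mean of at least 10 counts per library. It ran from 0.391 CPM in YUMM1.7 dHLH-Bmal1 to 5.30 CPM in B16-F10 KO, a 13.5-fold difference at a level of few reads. Neu1, the lysosomal sialidase, ranged 10.8-fold between YUMM1.7 EV and B16-F10 KO, and Atp6v1b2, a subunit of the catalytic head of the V-ATPase, ranged 10.2-fold between dHLH-Bmal1 shMyh9#4 and B16-F10 Ctrl. The cysteine protease Ctsl ranged 7.17-fold and Scarb2 6.34-fold, both lowest in B16-F10. At the other end, Lamp2 ranged 1.5-fold (114 to 171 CPM), Psap, the precursor of the saposins that activate lipid hydrolases, 1.71-fold (617 to 1056 CPM), and the V-ATPase subunit Atp6v0e 1.88-fold (65.6 to 123 CPM). QuantSeq counts do not grow with transcript length, and on this scale Cd63, a tetraspanin of late endosomes, made up 23.2% of the summed level of all members and Psap 12.3%. The summed CPM of the members ran from 5925 to 8485 over libraries, with a mean of 6981 ± 212 (SD, n = 2) in B16-F10 Ctrl and 8068 ± 589 in B16-F10 KO.

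**Figure D1:**
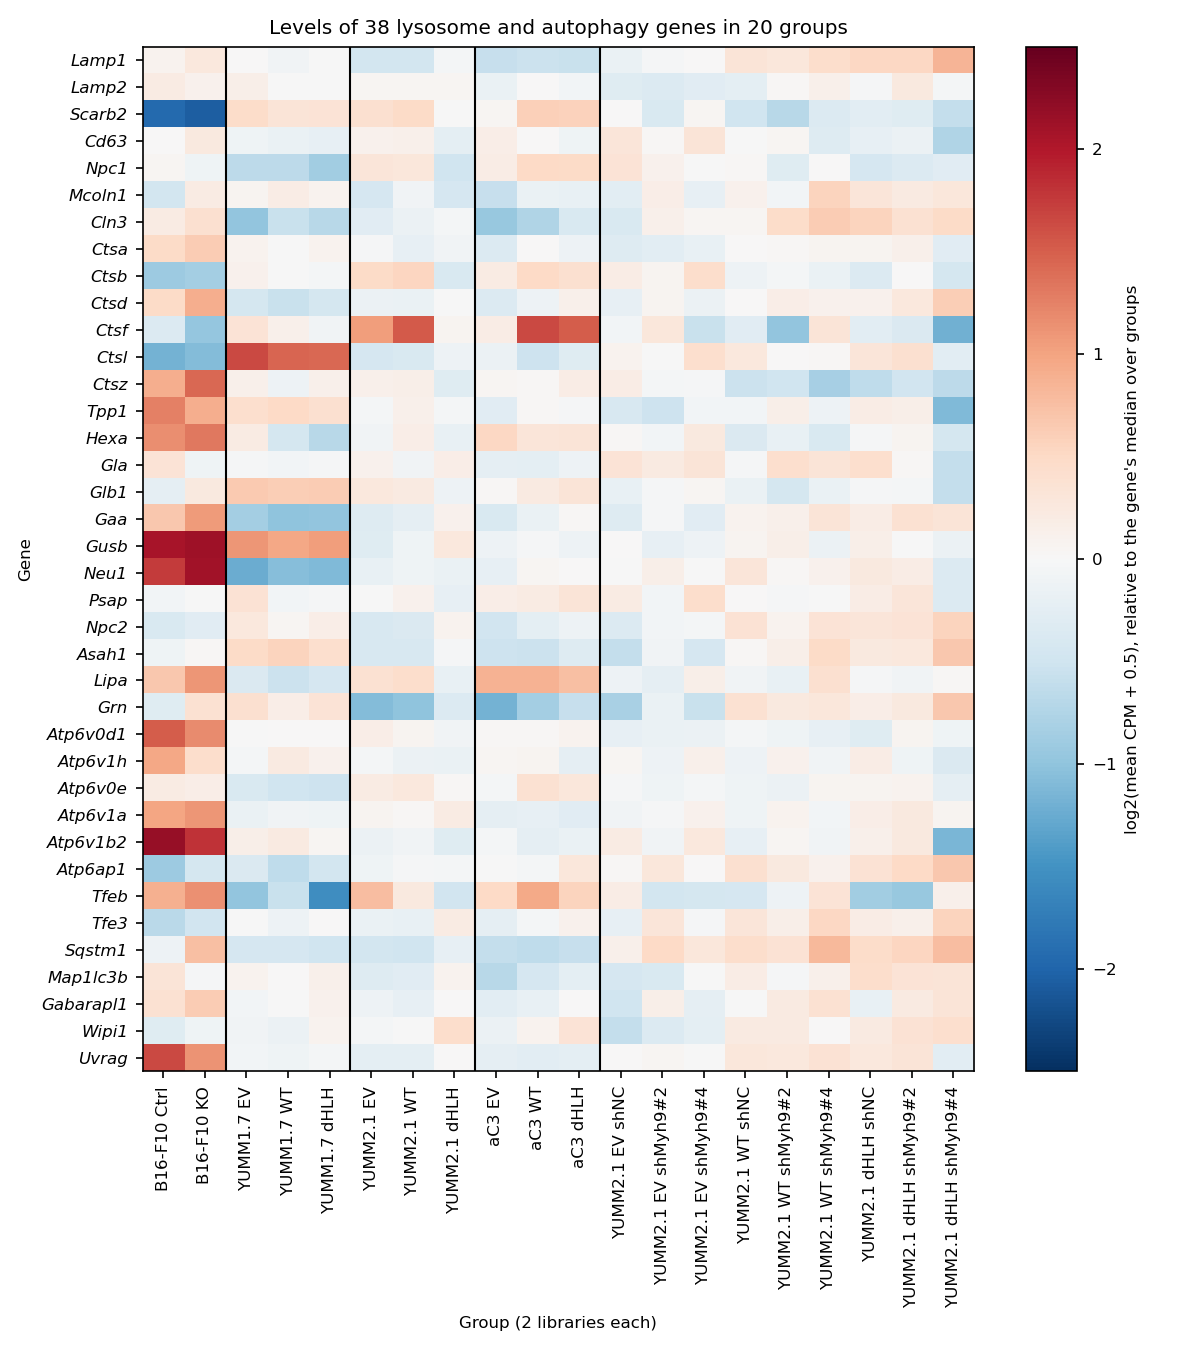
Levels of the 38 genes (vertical axis) in the 20 groups (horizontal axis, 2 libraries each), as log2 of mean CPM plus 0.5 relative to the median of each gene over groups. Black lines separate B16-F10, YUMM1.7, YUMM2.1, aC3 and the YUMM2.1 hairpin groups, and Neu1, Atp6v1b2 and Gusb stand out as high and Ctsl and Scarb2 as low in the 2 B16-F10 groups.

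B16-F10 Ctrl and YUMM1.7 EV differed in most of these genes. Among the 38 members tested, 19 were higher in B16-F10 and 10 lower, when 26.3% of all 15177 genes were called higher and 28.2% lower by the quasi-likelihood test of edgeR with Benjamini-Hochberg adjusted p-values under 0.05. This call is used throughout, and its value is given as the edgeR adjusted p. The median log2 fold change was 0.37 over the members and 0 over all genes. Neu1 had 62.1 and 65.3 CPM in the B16-F10 libraries and 6.41 and 8.61 CPM in YUMM1.7 EV, a log2 fold change of 3.07 (SE 0.16, edgeR adjusted p = 1.55e-07). Tfeb stood at 4.81 and 3.83 CPM against 0.802 and 0.842 CPM, or 2.36 (SE 0.37, edgeR adjusted p = 3.65e-04). Mitf, the melanocyte member of the Tfeb family and not one of the 38, had 789.8 to 991.6 CPM over the 4 B16-F10 libraries and at most 26.8 CPM elsewhere. The proton pump stood out as a group, with 5 of 6 V-ATPase members higher, 1 lower and a median log2 fold change of 1.07. Atp6v1b2 had 302 and 317 CPM in B16-F10 against 74.2 and 74.96 CPM in YUMM1.7 EV, with a log2 fold change of 2.03 (SE 0.096, edgeR adjusted p = 7.18e-08). Only Atp6ap1, an accessory subunit, was lower among the 6, at 130.3 and 156 against 213 and 204 CPM. Of 12 further V-ATPase subunits outside the 38, 11 were tested, 10 were higher and 0 lower, and their median was 1.12. Uvrag, a partner of Beclin in autophagosome and endosome maturation, was higher as well, at 79.7 and 87.1 against 24.2 and 25.5 CPM, or 1.73 (SE 0.12, edgeR adjusted p = 1.22e-06) on the log2 scale.

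The 7 proteases were divided, with 4 higher and 2 lower, and most lipid-handling genes were lower. Ctsl had 91.0 and 90.2 CPM in B16-F10 and 639.98 and 659.5 CPM in YUMM1.7 EV, a log2 fold change of -2.86 (SE 0.11, edgeR adjusted p = 1.80e-08), and Scarb2 had 56.8 and 55.9 against 313 and 294 CPM, or -2.45 (SE 0.097, edgeR adjusted p = 2.32e-08). Ctsb, another cysteine protease, was lower by -1.04 (SE 0.11) on the log2 scale and the β-galactosidase Glb1 by -0.91 (SE 0.13). Of the 5 lipid-handling members, Grn, Npc2, Asah1 and Psap were lower and Lipa, the acid lipase, was higher. The glycosidases went the other way, with 4 of 6 higher and Glb1 alone called lower. These 2 lines differ in origin and were not processed as one experiment by any label, so that line and batch cannot be told apart.

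YUMM1.7 EV differed from YUMM2.1 EV in 17 members, 10 higher and 7 lower, when 17.8% of all genes were called higher and 19.3% lower. Ctsl stood at 639.98 and 659.5 CPM in YUMM1.7 and 165 and 143 CPM in YUMM2.1, a log2 fold change of 2.07 (SE 0.11, edgeR adjusted p = 3.98e-07). Grn had 287 and 265 against 82.7 and 115 CPM, or 1.47 (SE 0.14, edgeR adjusted p = 2.79e-05), and the β-glucuronidase Gusb 43.6 and 44.0 against 17.4 and 15.3 CPM, or 1.40 (SE 0.12, edgeR adjusted p = 1.74e-05). Asah1, the acid ceramidase, was the fourth by size among the higher ones, at 0.89 (SE 0.16). All of Grn, Npc2, Asah1 and Psap, the lipid-handling members that were lower in B16-F10 than in YUMM1.7, were higher in YUMM1.7 than in YUMM2.1, and both comparisons share the YUMM1.7 EV libraries. Among lower members, Tfeb had 0.802 and 0.842 against 3.65 and 4.31 CPM, or -2.27 (SE 0.38, edgeR adjusted p = 0.00112). Neu1 was lower by -1.13 (SE 0.17), Npc1, the cholesterol exporter of the lysosomal membrane, by -0.99 (SE 0.10), and Lipa by -0.76 (SE 0.10). Leaving out YUMM1.7 EV replicate 1 gave 11 members and all other single libraries 12 to 19. With the labels of the 2 doubtful YUMM2.1 libraries exchanged the count was 22, and without both it was 19. The clone aC3 with EV differed from YUMM2.1 EV in 1 member, when 0.441% of all genes were called higher and 1.3% lower. Lipa had 78.6 and 78.2 CPM in aC3 and 58.0 and 54.4 CPM in YUMM2.1, a log2 fold change of 0.48 (SE 0.099, edgeR adjusted p = 0.0478). With the same 2 labels exchanged the count was 7, without both libraries 6, without YUMM2.1 EV replicate 1 it was 7, without EV replicate 2 it was 6, and without either aC3 EV library it was 0. The labels do not say whether YUMM1.7, YUMM2.1 and aC3 were processed together, so that line or clone and batch cannot be told apart here.

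**Figure D2:**
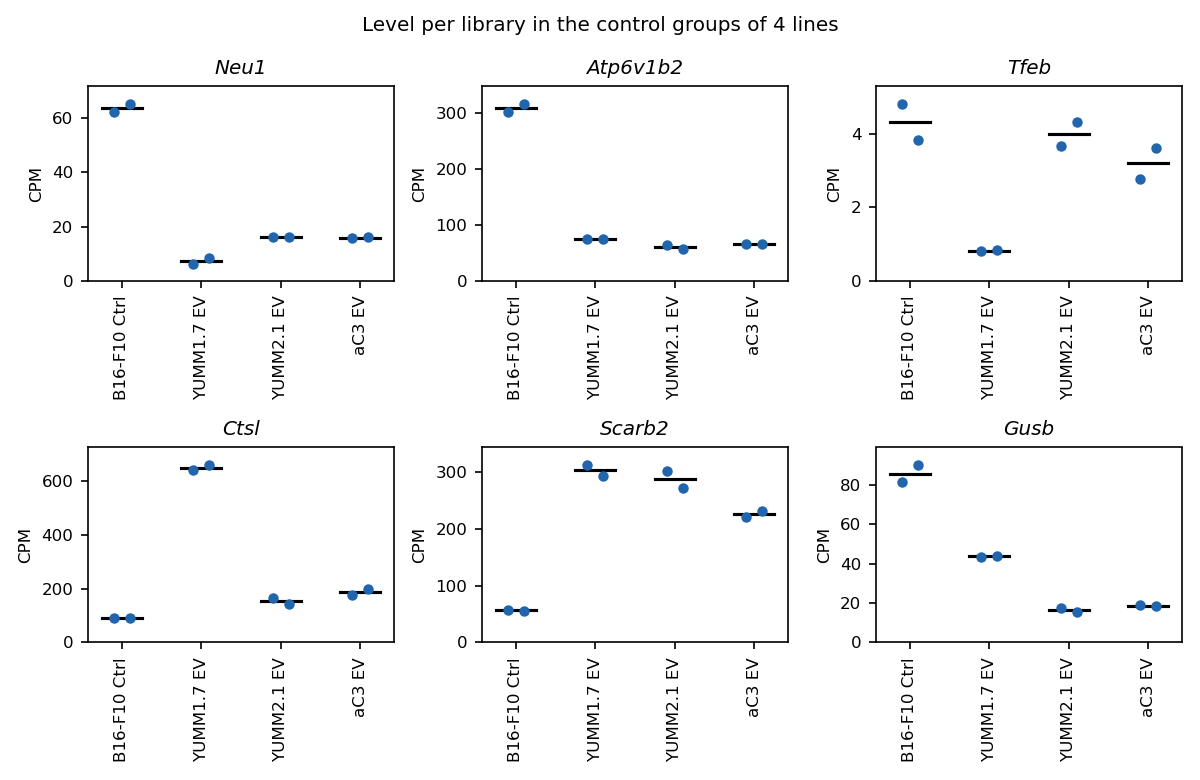
CPM (vertical axis, from 0) of 6 members in the control groups of B16-F10, YUMM1.7, YUMM2.1 and aC3 (horizontal axis), where each point is 1 library and each bar the mean of 2. Neu1, Atp6v1b2 and Gusb are highest in B16-F10, Ctsl is highest in YUMM1.7, Scarb2 is lowest in B16-F10 and Tfeb is lowest in YUMM1.7.

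In the Bmal1-disrupted clone aC3, small sets of lysosomal genes were higher with each Bmal1 construct, and 2 genes, Scarb2 and Ctsf, were called with both. With WT-Bmal1, 6 of 38 members were higher than with EV and 1 was lower, when 4.92% of all 13790 genes were called higher and 6.28% lower, and the median log2 fold change was 0.17 over the members and 0.0073 over all genes. With dHLH-Bmal1, which cannot bind DNA through the missing domain, 8 were higher and 0 lower, against 4.79% and 6.09% of all genes, with a median of 0.20 against 0.011. Both comparisons share the EV libraries. An unadjusted p under 0.05 was reached by 13 and 16 members, and by 3491 and 3538 of all 13790 genes. By role, the higher members were 3 proteases, 2 membrane proteins and 1 V-ATPase subunit with WT-Bmal1, and 2 proteases, 2 lipid-handling proteins, 2 autophagy genes, 1 membrane protein and 1 V-ATPase subunit with dHLH-Bmal1, with no glycosidase in either. The melanocytic marker sum was 545 and 536 CPM with EV, 637 and 650 CPM with WT-Bmal1 and 713 and 659 CPM with dHLH-Bmal1. The endothelial sum was 6.70 and 7.60, 11.99 and 12.5, and 11.4 and 9.24 CPM, and the part of either in these results was not tested.

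Scarb2 had 221 and 232 CPM with EV, 325 and 339 CPM with WT-Bmal1 and 353 and 305 CPM with dHLH-Bmal1. Every library of either construct lay above both EV libraries, with log2 fold changes of 0.55 (SE 0.089, edgeR adjusted p = 0.00142) and 0.52 (SE 0.089, edgeR adjusted p = 0.00253). Ctsf, whose window holds CACGTG, had 1.07 and 0.556 CPM with EV, 2.74 and 3.49 CPM with WT-Bmal1 and 2.45 and 3.12 CPM with dHLH-Bmal1. Its log2 fold changes of 1.91 (SE 0.50, edgeR adjusted p = 0.0249) and 1.74 (SE 0.51, edgeR adjusted p = 0.0424) were the largest of any member in aC3 and rest on the fewest reads, and DESeq2 gave no adjusted p for either. Npc1 had 76.0 and 81.6 CPM with EV and 97.2 and 100.2 CPM with WT-Bmal1, giving a log2 fold change of 0.32 (SE 0.086, edgeR adjusted p = 0.0280) that DESeq2 did not call (adjusted p = 0.0749). With dHLH-Bmal1 it had 97.7 and 95.1 CPM, and its change of 0.28 (SE 0.087, edgeR adjusted p = 0.0547) missed the threshold and passed it with a replicate block (0.28). Atp6v0e, part of the membrane sector of the V-ATPase, rose with WT-Bmal1 from 91.5 and 92.2 to 118 and 128 CPM, or 0.42 (SE 0.10, edgeR adjusted p = 0.0165). Tpp1, a tripeptidyl peptidase, and Ctsb rose by 0.31 (SE 0.091) and 0.29 (SE 0.084). Ctsl was the member that fell, from 175 and 197 to 147 and 141 CPM, with a log2 fold change of -0.37 (SE 0.094, edgeR adjusted p = 0.0207).

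Grn had 91.1 and 93.9 CPM with EV and 129.7 and 152 CPM with dHLH-Bmal1, giving a log2 fold change of 0.59 (SE 0.10, edgeR adjusted p = 0.00245). Wipi1, which binds phosphoinositide on forming autophagosomes, rose from 71.6 and 68.9 to 103 and 95.9 CPM, or 0.49 (SE 0.089, edgeR adjusted p = 0.00375). Ctsd had 329 and 327 CPM with EV and 419 and 488 CPM with dHLH-Bmal1, or 0.46 (SE 0.091, edgeR adjusted p = 0.00617). Each of these 3 genes had both dHLH-Bmal1 libraries above both EV libraries. Map1lc3b, which encodes the LC3 protein of autophagosomes, Npc2, the soluble cholesterol carrier that hands over to Npc1, and Atp6ap1 rose by 0.44 (SE 0.10), 0.35 (SE 0.093) and 0.30 (SE 0.085). Set against each other, the WT-Bmal1 and dHLH-Bmal1 cells differed in 0 members by edgeR's quasi-likelihood test, 5 at an unadjusted p under 0.05 and 1 by DESeq2, when 0.877% of all genes were called. Of all 13790 genes, 1638 had an unadjusted p under 0.05 there. Lamp1, with its 4 copies of CACGTG, had 258 and 257 CPM with EV, 268 and 260.4 CPM with WT-Bmal1 and 249 and 273 CPM with dHLH-Bmal1. Of 13 tested members with CACGTG, 2 rose and 0 fell with dHLH-Bmal1, and of 20 with a window but no CACGTG, 6 rose and 0 fell. With WT-Bmal1, 2 rose and 1 fell of the 13, and 2 rose and 0 fell of the 20. For WT-Bmal1, leaving out any one of WT-Bmal1 replicates 1 and 2 or EV replicates 1 and 2 left 1 member called. For dHLH-Bmal1 the count was 3 without EV replicate 1, 2 without EV replicate 2, 7 without dHLH-Bmal1 replicate 1 and 9 without dHLH-Bmal1 replicate 2.

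In YUMM2.1, whose own Bmal1 is intact, 3 members were lower and 0 higher with dHLH-Bmal1, when 6.51% of all 14323 genes were called higher and 6.72% lower. An unadjusted p under 0.05 was reached by 16 members and by 4083 of all genes. Ctsb had 348 and 282 CPM with EV and 187 and 162 CPM with dHLH-Bmal1, giving a log2 fold change of -0.85 (SE 0.16, edgeR adjusted p = 0.0179). Npc1 had 82.0 and 90.3 and 44.9 and 52.8 CPM, or -0.81 (SE 0.15, edgeR adjusted p = 0.0161). Lipa had 58.0 and 54.4 and 40.7 and 34.5 CPM, or -0.58 (SE 0.15, edgeR adjusted p = 0.0469). For all 3 genes both dHLH-Bmal1 libraries lay below both EV libraries. Samples with the same replicate number deviated together in this experiment, as measured with the 2 doubtful libraries under their deposited labels. The share of all genes called with the replicate number as a block is not given. With this block 14 members were called, 7 higher and 7 lower. Grn was among these, at 82.7 and 115 CPM with EV and 137 and 195 CPM with dHLH-Bmal1, with a log2 fold change of 0.75 (SE 0.22, edgeR adjusted p = 0.0666) without and 0.75 with the block. Wipi1 (0.51), Lamp1 (0.42), Map1lc3b (0.42) and Npc2 (0.50) likewise passed with the block, and Scarb2 (-0.39) and Tfeb (-1.54) did so on the lower side, all given here with the log2 fold change of the fit without it. With the 2 doubtful labels exchanged 13 members were called, 6 of them lower, and without both libraries 2, Ctsb and Grn. The log2 fold change of Ctsb was -1.01 in each of these last settings and that of Npc1 -0.82 and -0.76. Without EV replicate 1, dHLH-Bmal1 replicate 1 or dHLH-Bmal1 replicate 2 the count was 1, and without EV replicate 2 it was 4. The melanocytic marker sum fell alongside, from 597 and 588 CPM with EV to 116 and 134 CPM with dHLH-Bmal1, and its part in these results was not tested.

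WT-Bmal1 in YUMM2.1 called 0 members by edgeR's quasi-likelihood test, 0 at an unadjusted p under 0.05 and 0 by DESeq2, when 0% of all genes were called. Of all 14323 genes, 98 had an unadjusted p under 0.05. Ctsb had 352 and 299 CPM, Npc1 90.8 and 78.0 CPM and Lamp1 267 and 293 CPM in the libraries labelled WT-Bmal1, in each case overlapping the EV libraries. The count was also 0 with the 2 labels exchanged and without both libraries.

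The effect of dHLH-Bmal1 on 5 members differed between YUMM2.1 and aC3 when the difference itself was tested in one fit. All 5 were lower in YUMM2.1 relative to aC3, when 5% of all 14673 genes were called higher by this test and 7.16% lower. Npc1 had a difference of log2 fold changes of -1.06 (SE 0.17, edgeR adjusted p = 0.00168), made up of -0.81 in YUMM2.1 and 0.28 in aC3. Ctsb differed by -0.99 (SE 0.19, edgeR adjusted p = 0.00495), from -0.85 and 0.17. Scarb2 differed by -0.88 (SE 0.16, edgeR adjusted p = 0.00426), from -0.39, at 303 and 273 CPM with EV and 227 and 212 CPM with dHLH-Bmal1, and the rise of 0.52 described in aC3. These 3 encode a lipid exporter, a protease and a receptor, and each lay lower with dHLH-Bmal1 in the parent line and higher in the clone. Not all of these changes were called on their own. Scarb2 in YUMM2.1 (edgeR adjusted p = 0.105) and Npc1 and Ctsb in aC3 (edgeR adjusted p = 0.0547 and 0.219) missed the threshold. Ctsf differed by -3.11 (SE 0.72, edgeR adjusted p = 0.0158), from -1.40 and 1.74, and Glb1 by -0.65 (SE 0.18, edgeR adjusted p = 0.0405), from -0.40 and 0.28. Glb1 was not called by DESeq2 or without a filter on low counts. Exchanging the 2 doubtful labels gave 10 members, 2 of them higher (Lamp1 and Sqstm1) and 8 lower, and leaving both out gave 3, all lower, and Npc1, Ctsb and Scarb2 passed under each. As an alternative chosen after the data were seen, the shNC libraries of the hairpin experiment were put in place of the first YUMM2.1 libraries, and 6 members were called, 2 higher and 4 lower. Npc1, Ctsb and Scarb2 then differed by -1.05, -0.70 and -0.78 on the log2 scale and passed, as did Ctsz (-0.97) on the lower side and Lamp1 (0.67) and Asah1 (0.66) on the higher side, whereas Ctsf (-2.14) and Glb1 (-0.11) did not. Leaving out single libraries gave 3 to 6 members, the 3 without aC3 EV replicate 2.

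**Figure D3:**
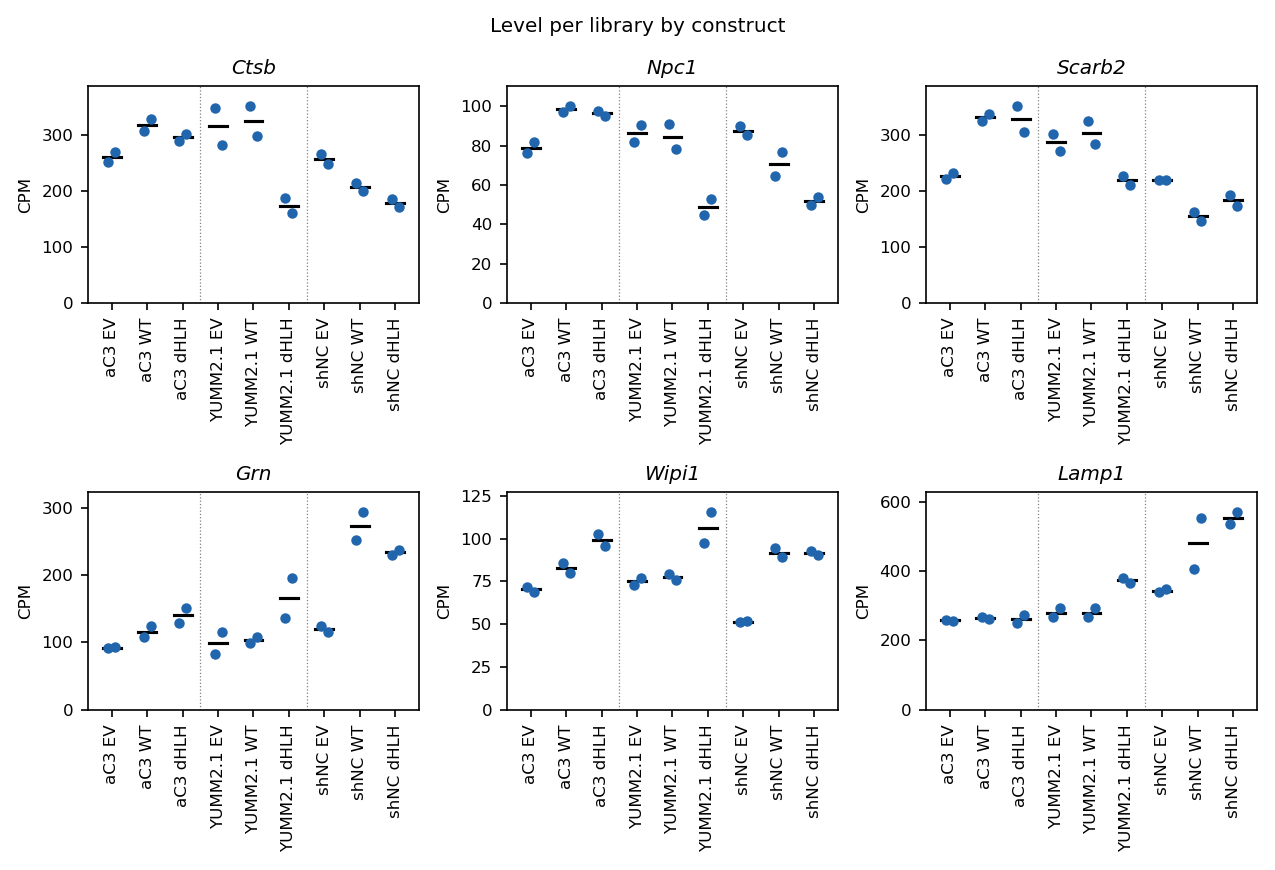
CPM (vertical axis, from 0) of 6 members by construct (horizontal axis) in aC3, YUMM2.1 and YUMM2.1 with shNC, where each point is 1 library, each bar the mean of 2, and dotted lines separate the 3 experiments. Ctsb and Npc1 lie lowest with dHLH-Bmal1 in both YUMM2.1 experiments and not in aC3, and Grn and Wipi1 lie higher with dHLH-Bmal1 than with EV in all 3.

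The shNC libraries of the hairpin experiment gave a second set of YUMM2.1 cells with the same constructs and with no library in common with the first. With dHLH-Bmal1, 10 of 37 tested members were higher than with EV and 4 lower, when 13.9% of all 14848 genes were called higher and 12.5% lower. An unadjusted p under 0.05 was reached by 22 members and by 5501 of all genes. The median log2 fold change was 0.27 over the members and 0.016 over all genes. Cln3 had 4.07 and 4.04 CPM with EV and 9.58 and 6.97 CPM with dHLH-Bmal1, giving a log2 fold change of 1.05 (SE 0.28, edgeR adjusted p = 0.0105). Grn had 124 and 115 and 231 and 238 CPM, or 0.98 (SE 0.15, edgeR adjusted p = 7.41e-05). Map1lc3b had 73.4 and 83.7 and 148 and 138 CPM, or 0.87 (SE 0.12, edgeR adjusted p = 2.26e-05). Asah1 had 21.6 and 22.6 and 40.6 and 38.9 CPM, or 0.85 (SE 0.16, edgeR adjusted p = 8.28e-04). In each of these genes, a membrane protein, a growth-factor precursor, an autophagosome protein and a ceramidase, the lowest dHLH-Bmal1 library lay above the highest EV library. Lamp1 rose from 339 and 348 to 535 and 569.7 CPM, or 0.69 (SE 0.12, edgeR adjusted p = 3.82e-04), and Wipi1 from 51.1 and 51.8 to 92.7 and 90.3 CPM, or 0.84 (SE 0.13, edgeR adjusted p = 1.04e-04). Npc2, Gaa, Ctsa and Atp6v1a completed the higher set, with log2 fold changes of 0.28 to 0.65.

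On the lower side, Ctsz, a carboxypeptidase, had 78.7 and 75.4 CPM with EV and 40.3 and 46.7 CPM with dHLH-Bmal1, giving a log2 fold change of -0.82 (SE 0.14, edgeR adjusted p = 3.30e-04). Npc1 had 89.8 and 85.3 and 49.6 and 53.8 CPM, or -0.75 (SE 0.12, edgeR adjusted p = 1.66e-04), and Ctsb 267 and 248 and 186 and 171 CPM, or -0.52 (SE 0.13, edgeR adjusted p = 0.00572). Cd63, the member with the most counts, fell from 1897 and 2030.1 to 1411 and 1351 CPM, or -0.50 (SE 0.084, edgeR adjusted p = 2.35e-04). Npc1 and Ctsb were thus lower with dHLH-Bmal1 in both sets of YUMM2.1 libraries. Over all 37 members, 30 (81.1%) had the same sign of fold change in both, against 72.7% of all 13985 genes tested in both, and of the 14 members called here 13 (92.9%) had the same sign in the first set, against 90.6% of all called genes, so that the members matched about as often as other genes did. The share of members was 78.4% with the 2 doubtful labels of the first set exchanged and 70.3% without both libraries, against 72.0% and 71.7% of all genes. By the study's methods the hairpin viruses were added to YUMM2.1 cells that already bore these constructs, so the sets share no library but may share a construct line. Of 12 tested members with CACGTG, 5 were higher and 0 lower, and of 20 with a window and no CACGTG, 4 were higher and 2 lower. With WT-Bmal1 the same counts were 1 and 0 of 12 and 5 and 3 of 20. The melanocytic marker sum was 459 and 471 CPM with EV and 138 and 137 CPM with dHLH-Bmal1, the endothelial sum was 10.1 and 7.96 and 14.5 and 16.5 CPM, and their part in these results was not tested. Mitf alone had 16.3 and 14.6 CPM with EV and 18.3 and 18.0 CPM with dHLH-Bmal1. Tfeb had 2.47 CPM in both EV libraries and 1.04 and 0.811 CPM with dHLH-Bmal1, and its log2 fold change of -1.36 (SE 0.68, edgeR adjusted p = 0.154) missed the threshold. Leaving out single libraries gave 10 or 11 members, at least 10 of the 14 in each case.

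WT-Bmal1 with shNC gave 7 higher and 3 lower of 37, when 11.7% of all genes were called higher and 10.6% lower, and it shares its EV libraries with the dHLH-Bmal1 comparison. Grn had 124 and 115 CPM with EV and 252 and 294 CPM with WT-Bmal1, giving a log2 fold change of 1.19 (SE 0.15, edgeR adjusted p = 1.39e-05), the largest among the members called in the construct comparisons of this experiment. Wipi1 had 94.2 and 89.1 CPM with WT-Bmal1, or 0.84 (SE 0.13, edgeR adjusted p = 1.58e-04). Npc2 had 337 and 345 and 498 and 600.2 CPM, or 0.69 (SE 0.13, edgeR adjusted p = 7.49e-04). Asah1 rose by 0.63 (SE 0.17), and Map1lc3b, Tfe3 and Lamp1 by 0.48 to 0.61. Tfe3, a relative of Tfeb, had 30.5 and 30.8 CPM with EV and 35.9 and 50.6 CPM with WT-Bmal1, or 0.50 (SE 0.17, edgeR adjusted p = 0.0374). Ctsz fell from 78.7 and 75.4 to 46.4 and 47.3 CPM, or -0.71 (SE 0.14, edgeR adjusted p = 0.00153), Scarb2 from 219 and 219.6 to 163 and 147 CPM, or -0.50 (SE 0.14, edgeR adjusted p = 0.0192), and Cd63 by -0.32 (SE 0.084). Npc1 and Ctsb had 64.4 and 76.5 and 214 and 200.2 CPM, with log2 fold changes of -0.31 and -0.31 that missed the threshold. As labelled, WT-Bmal1 gave the same sign in both sets of YUMM2.1 libraries for 19 of 37 members (51.4%), against 51.9% of all genes, and for 5 of the 10 called here (50%), against 54.2%. This first comparison holds both doubtful libraries, and the share of members was 62.2% with their labels exchanged and 75.7% without them, against 63.2% and 62.2% of all genes, so it rests on how these 2 libraries are treated. Without EV replicate 2 the count was 5 and without WT-Bmal1 replicate 2 it was 6, and the marker sums with WT-Bmal1 were 247 and 254 CPM for melanocytic and 21.5 and 20.9 CPM for endothelial genes, whose part was not tested.

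**Figure D4:**
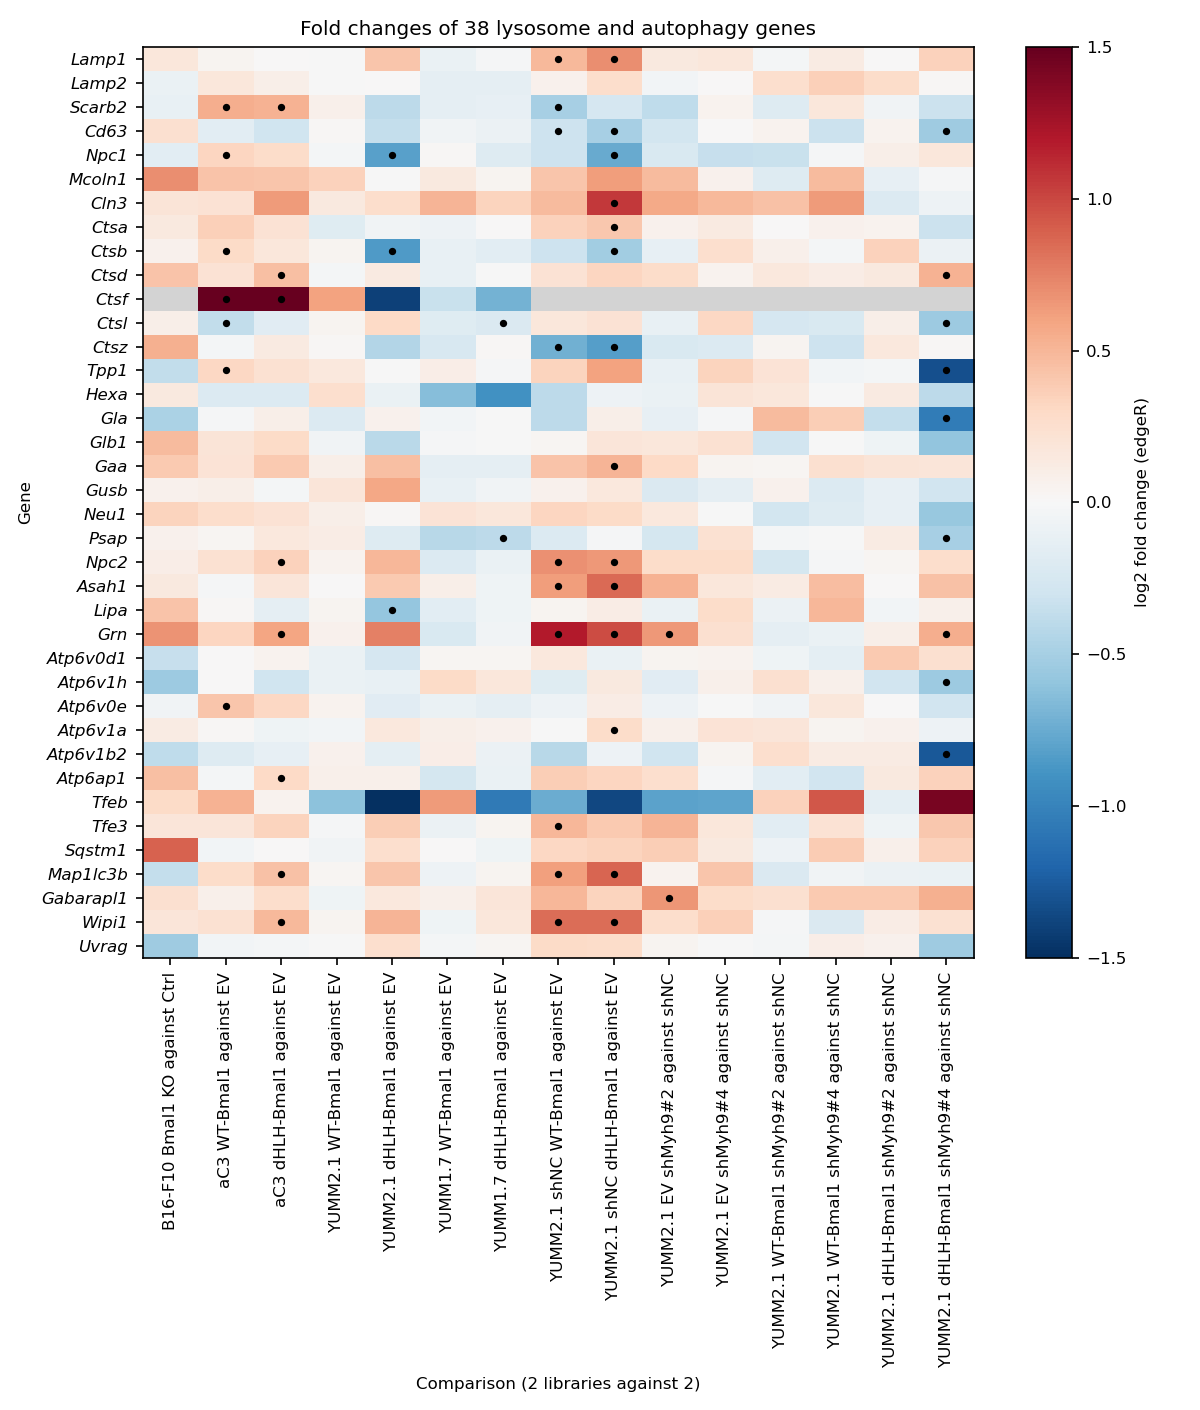
Log2 fold changes (colour, drawn to ±1.5) of the 38 genes (vertical axis) in 15 comparisons of 2 libraries against 2 (horizontal axis), with a dot where the edgeR adjusted p is under 0.05 and grey where Ctsf was not tested. Grn is called in 5 of the columns, always as higher, and Ctsb and Npc1 are called lower with dHLH-Bmal1 in both YUMM2.1 experiments.

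In YUMM1.7 cells few of these genes were called, and few of all genes were. With WT-Bmal1, 10 members and 1423 of all 13816 genes had an unadjusted p under 0.05. By edgeR's quasi-likelihood test 0 members were called, when 0.138% of all genes were, and DESeq2 called 3 members. Without WT-Bmal1 replicate 1 the count was 5, all lower. With dHLH-Bmal1, 0 members were higher and 2 lower, when 0.21% of all genes were called higher and 0.42% lower. Psap had 1003 and 995 CPM with EV and 704 and 811 CPM with dHLH-Bmal1, giving a log2 fold change of -0.39 (SE 0.082, edgeR adjusted p = 0.0392). Ctsl, which is most abundant in this line, had 639.98 and 659.5 and 565 and 545 CPM, or -0.22 (SE 0.046, edgeR adjusted p = 0.0357). Both genes separated the groups, but the count was 0 without any one of EV replicates 1 and 2 or dHLH-Bmal1 replicates 1 and 2 and 0 with the replicate block, and DESeq2 did not call Psap. Npc1 and Ctsb, lower with dHLH-Bmal1 in YUMM2.1, had 41.8 and 45.4 and 242 and 245 CPM with EV and 36.5 and 39.4 and 219.6 and 214 CPM with dHLH-Bmal1 here.

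In B16-F10, the libraries labelled Bmal1 KO differed from Ctrl in 0 members by edgeR's quasi-likelihood test, in 3 at an unadjusted p under 0.05 and in 1 by DESeq2, when 0.44% of all 14556 genes were called. Of all genes, 1715 had an unadjusted p under 0.05. Sqstm1, the autophagy receptor p62, had 363 and 371 CPM in Ctrl and 595 and 768 CPM in KO, with a log2 fold change of 0.89 (SE 0.19, edgeR adjusted p = 0.194). Ctsd had 559.8 and 593 CPM in Ctrl and 563 and 991 CPM in KO, and Grn 172 and 168 and 169.6 and 374 CPM. KO replicate 2 stood apart for both, while KO replicate 1 lay near Ctrl. Lamp1 had 397 and 421 and 406 and 521 CPM. Without KO replicate 1, which leaves replicate 2 alone, 21 members were called, 15 higher and 6 lower. Without KO replicate 2 the count was 4, Sqstm1 and Lipa higher and Map1lc3b and Uvrag lower, and the values of Ctsd and Lamp1 changed sign. The lone library is assumed in these fits to vary as the Ctrl libraries do. The share of all genes called in these fits is not given. Their counts show how far the result rests on 1 library and not a change particular to these genes.

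Few of these genes, and a small share of all genes, were called with hairpins against Myh9 except in 1 group. In EV cells, shMyh9#2 gave 2 higher and 0 lower members, when 4.2% of all genes were called higher and 2.46% lower. Grn had 124 and 115 CPM with shNC and 199 and 177 CPM with shMyh9#2, a log2 fold change of 0.65 (SE 0.15, edgeR adjusted p = 0.0111), and Gabarapl1, an LC3 relative on autophagosomes, 35.6 and 23.0 and 45.7 and 46.7 CPM, or 0.66 (SE 0.18, edgeR adjusted p = 0.0382). The count was 0 without shNC replicate 2 or shMyh9#2 replicate 1 and 1 without shNC replicate 1 or shMyh9#2 replicate 2. By edgeR's quasi-likelihood test 0 members were called for shMyh9#4 in EV cells (1.71% of all genes), shMyh9#2 and shMyh9#4 in WT-Bmal1 cells (4.76% and 0.236%) and shMyh9#2 in dHLH-Bmal1 cells (0.559%). At an unadjusted p under 0.05 these comparisons held 6, 4, 8 and 3 members, and 1539, 2721, 1794 and 1515 of all 14848 genes. DESeq2 called 1, 0, 1 and 0 members. The effect of shMyh9#2 did not differ between dHLH-Bmal1 and EV cells past the threshold for any member (3.29% of all genes called, and 0 members by DESeq2). Here 5 members and 2499 of all 14848 genes had an unadjusted p under 0.05.

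With shMyh9#4 in dHLH-Bmal1 cells, 2 members were higher and 7 lower, when 6.28% of all genes were called higher and 8.86% lower. Tpp1 had 106 and 82.1 CPM with shNC and 45.7 and 30.2 CPM with shMyh9#4, a log2 fold change of -1.32 (SE 0.30, edgeR adjusted p = 0.00847). Atp6v1b2 had 80.9 and 66.6 and 31.3 and 29.2 CPM, or -1.28 (SE 0.21, edgeR adjusted p = 0.00127), and with shMyh9#2 it stood at 63.9 and 96.2 CPM. Gla, the α-galactosidase, had 13.1 and 13.0 and 6.20 and 6.26 CPM, or -1.04 (SE 0.32, edgeR adjusted p = 0.0338). Both shMyh9#4 libraries lay below both shNC libraries in each. Atp6v1h, another subunit of the pump head, was the fourth by size, at -0.55 (SE 0.18, edgeR adjusted p = 0.0435), a call that was lost with DESeq2's size factors, without a filter on low counts, with the replicate block and by DESeq2 (adjusted p of 0.0517 to 0.0875). Ctsl, Cd63 and Psap fell by 0.50 to 0.54. Grn rose again, from 231 and 238 to 294 and 377 CPM, or 0.54 (SE 0.14, edgeR adjusted p = 0.0187), and Ctsd from 444 and 449 to 569.5 and 694 CPM, or 0.52 (SE 0.12, edgeR adjusted p = 0.00953). The 2 shMyh9#4 libraries of this group had the lowest and a low total, 3643332 and 6001340 counts, and reduced Myh9 less than shMyh9#2 did, at 635 to 678 against 263 to 291 CPM. Without shMyh9#4 replicate 2, the count was 2, as it was without shNC replicate 1, without shNC replicate 2 it was 4, and without shMyh9#4 replicate 1, the shallowest library, it was 12.

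**Figure D5:**
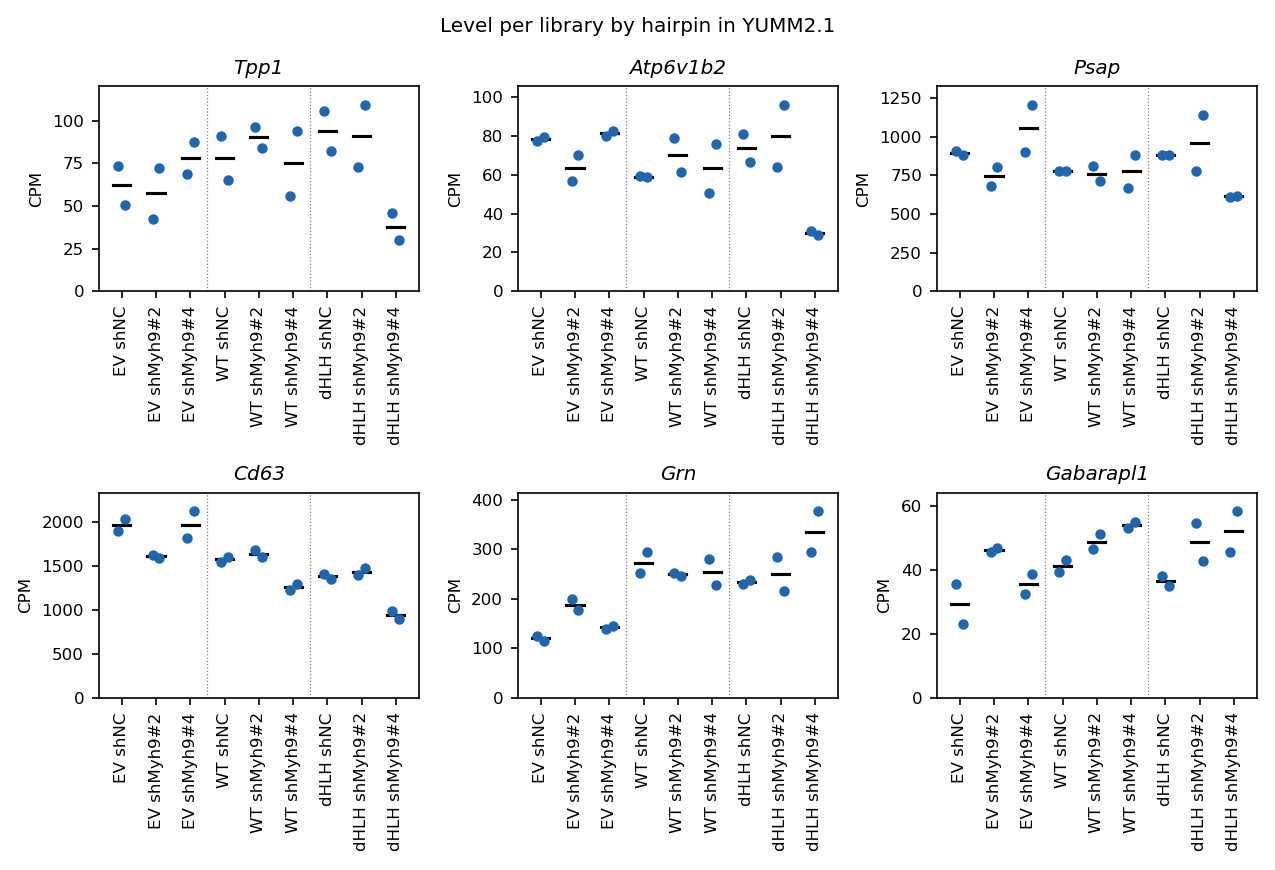
CPM (vertical axis, from 0) of 6 members in YUMM2.1 cells by construct and hairpin (horizontal axis), where each point is 1 library, each bar the mean of 2, and dotted lines separate EV, WT-Bmal1 and dHLH-Bmal1 cells. Tpp1, Atp6v1b2 and Cd63 are lowest and Grn is highest in dHLH-Bmal1 cells with shMyh9#4.

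Other genes of the pathway, from lists that hold none of the 38, were counted in the same fits. With dHLH-Bmal1 in the shNC libraries, 8 of 30 further hydrolases rose and 4 fell, 2 of 25 further membrane and delivery proteins rose and 6 fell, 3 of 11 further V-ATPase subunits rose and 1 fell, 8 of 38 further autophagy genes rose and 2 fell, and 2 of 16 genes of nutrient sensing at the lysosome rose and 0 fell, when 13.9% of all genes were called higher and 12.5% lower. In the first YUMM2.1 libraries the same construct gave 3 higher and 2 lower of 29 hydrolases, 0 and 3 of 25 membrane proteins, 0 and 1 of 11 V-ATPase subunits, 2 and 2 of 38 autophagy genes and 1 and 1 of 16 nutrient-sensing genes, against 6.51% and 6.72% of all genes. In aC3, dHLH-Bmal1 gave 2 and 0 of 29, 4 and 1 of 25, 2 and 0 of 11, 4 and 0 of 38, and 0 and 1 of 15, against 4.79% and 6.09% of all genes. With shMyh9#4 in dHLH-Bmal1 cells, 3 hydrolases were higher and 2 lower of 30, 2 and 1 of 25 membrane proteins, 2 and 0 of 11 V-ATPase subunits, 1 and 6 of 38 autophagy genes, and 1 and 4 of 16 nutrient-sensing genes, when 6.28% of all genes were called higher and 8.86% lower. Across the 21 comparisons, 35 of the 38 members were called in at least 1, and 24 in at least 1 of the 10 comparisons of constructs or of the knockout, when 71.4% of all 16663 genes tested in any of them and 37.1% of 16623 were. These shares are not like for like. Of the members, 37 were tested in every comparison, whereas many of all genes were tested in only some and had fewer chances of a call.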

How the data were processed

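Libraries were made by the authors from 100 ng of DNase-treated RNA with a QuantSeq forward kit and sequenced as single reads of 75 bp. Per the methods and the submitters' processing notes, the authors aligned reads to mm10 with bowtie2 and used RSEM (1.2.3 in the notes) to obtain an estimated count per Ensembl gene, and they deposited these counts as whole numbers without normalization. The Ensembl release and the strand used in counting are not given in the sources used here, and 18 of the 38 members overlap another gene, 7 of them on the same strand (Cln3, Ctsd, Ctsl, Glb1, Map1lc3b, Gabarapl1 and Uvrag), so their reads may be shared.

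The members and gene lists were chosen with earlier results of these data known. Groups came from the sample labels. With edgeR 4.0.16 in R 4.3.3, each experiment was fitted as a whole (filterByExpr, TMM, quasi-likelihood test over all genes) and a gene was called when its p, adjusted by the method of Benjamini and Hochberg, was under 0.05. The 4 control groups were fitted together for comparisons of lines, and the YUMM2.1 and aC3 construct groups together for the difference between them. A permutation of 2 libraries against 2 reaches no p below 0.333 and was left out. Errors are the SD of the 2 libraries in a group or the SE of a log2 fold change. Totals of 3643332 to 22970049 counts set the precision of low genes.

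Members were named by a rule: up to 4 called members in each direction by size, the widest and narrowest ranges, those called in tests of a difference, and Lamp1, Ctsd, Sqstm1, Tfeb and Tfe3. Others with values, such as Wipi1, Npc2 and Npc1 where not called, were chosen after their values were seen. Same-numbered libraries deviated together in YUMM2.1, with a correlation of 0.133 to 0.297 over 3 pairs of groups. These values hold the 2 doubtful libraries under their deposited labels. In the hairpin experiment the mean over 36 pairs was -0.00416 and the highest 0.159. In the other experiments no pair was over 0.1. Alternatives were DESeq2's size factors, DESeq2 1.42.0, no filter on low counts, the replicate block, each library left out, and the 2 YUMM2.1 labels exchanged or both left out. Counts of called members under these alternatives are given without the share of all genes called in the same fit. They show how far a count moves and not a result particular to these genes. Simulated counts in which 200 genes had known changes were used to test the scripts. The study's other assays were not analysed here.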

Additional observations from a re-analysis of the deposited data

Results flagged for a closer look

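For 5 members the effect of dHLH-Bmal1 against EV differed between YUMM2.1 and aC3 by a test of the difference itself (the quasi-likelihood test of edgeR, Benjamini-Hochberg adjusted over all 14673 genes, 2 libraries in each of the 4 groups). Ctsf differed by -3.11 (SE 0.72, edgeR adjusted p = 0.0158) on the log2 scale, Npc1 by -1.06 (SE 0.17, edgeR adjusted p = 0.00168), Ctsb by -0.99 (SE 0.19, edgeR adjusted p = 0.00495), Scarb2 by -0.88 (SE 0.16, edgeR adjusted p = 0.00426) and Glb1 by -0.65 (SE 0.18, edgeR adjusted p = 0.0405). In YUMM2.1 the dHLH-Bmal1 libraries lay below the EV libraries for all 5, and in aC3 they lay above them for all 5, though several of these changes missed the threshold on their own. Both lines differ in more than Bmal1, aC3 being 1 clone, so that clone and Bmal1 status cannot be told apart.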

How the results depend on the processing

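The scaling of libraries by DESeq2's size factors kept all 21 counts of called members within 1.5 times. Counts that moved further follow, with the count from edgeR's quasi-likelihood test in parentheses, and the cause was not tested. Without a filter on low counts they were 1 in B16-F10 KO (0), 1 in aC3 WT-Bmal1 against dHLH-Bmal1 (0), 7 in YUMM2.1 dHLH-Bmal1 (3), 6 in YUMM1.7 WT-Bmal1 (0), 4 for shMyh9#2 in EV cells (2), 2 in aC3 EV against YUMM2.1 EV (1) and 1 for the difference in shMyh9#2 effect (0). DESeq2 gave 1 in B16-F10 KO, 4 in aC3 WT-Bmal1 against EV (7), 1 in aC3 WT-Bmal1 against dHLH-Bmal1, 7 in YUMM2.1 dHLH-Bmal1, 3 in YUMM1.7 WT-Bmal1, 1 in YUMM1.7 dHLH-Bmal1 (2), 1 each for shMyh9#4 in EV (0) and WT-Bmal1 cells (0), and 2 in aC3 EV against YUMM2.1 EV. Exchanging the 2 YUMM2.1 labels gave 13 in YUMM2.1 dHLH-Bmal1, 7 in aC3 EV against YUMM2.1 EV and 10 for the difference in dHLH-Bmal1 effect (5), and leaving both libraries out gave 6 in aC3 EV against YUMM2.1 EV and 3 for that difference.

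With the replicate block the counts were 14 in YUMM2.1 dHLH-Bmal1 (3), 1 in aC3 WT-Bmal1 against dHLH-Bmal1 (0), 0 in YUMM1.7 dHLH-Bmal1 (2) and 0 in aC3 EV against YUMM2.1 EV (1), and the other 17 stayed within 1.5 times. Outside YUMM2.1 the mean correlation of same-numbered libraries was 0.087 or less in each experiment, and the highest of 36 pairs of hairpin groups was 0.159.

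Leaving out 1 library at a time gave 0 to 21 members in B16-F10 KO, 1 in aC3 WT-Bmal1 against EV, 2 to 9 in aC3 dHLH-Bmal1, 0 to 2 in aC3 WT-Bmal1 against dHLH-Bmal1, 0 in YUMM2.1 WT-Bmal1, 1 to 4 in YUMM2.1 dHLH-Bmal1, 0 to 5 in YUMM1.7 WT-Bmal1, 0 in YUMM1.7 dHLH-Bmal1, 5 to 10 in shNC WT-Bmal1, 10 to 11 in shNC dHLH-Bmal1, 0 to 1 for shMyh9#2 in EV cells, 0 for shMyh9#4 in EV cells, both hairpins in WT-Bmal1 cells and shMyh9#2 in dHLH-Bmal1 cells, 2 to 12 for shMyh9#4 in dHLH-Bmal1 cells, 26 to 27 in B16-F10 against YUMM1.7, 11 to 19 in YUMM1.7 against YUMM2.1, 0 to 7 in aC3 EV against YUMM2.1 EV, 3 to 6 for the difference in dHLH-Bmal1 effect and 0 to 1 for that of shMyh9#2. Of 746 values of named members under all alternatives, 610 kept direction and side of the threshold, 97 fell short of it, 37 newly passed it and 2 changed sign, namely Ctsd and Lamp1 in B16-F10 KO. DESeq2 gave no adjusted p for Ctsf in aC3 with WT-Bmal1 or dHLH-Bmal1, and these are not among the 746. Leaving out single libraries gave -0.040 to 0.78 for Ctsd and -0.017 to 0.34 for Lamp1, lowest without KO replicate 2 and highest without KO replicate 1. Genes of a few CPM such as Tfeb, Cln3 and Ctsf rest on few reads, which limits their fold changes at this depth.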
